A study of Mus musculus with 12 samples.

Results

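Malat1, Neat1, Snord104, Snora31 and DQ267102 are RNAs that work in the nucleus without being translated. They were selected on their log2 signals in the arrays themselves, because Malat1 and small nucleolar RNAs (snoRNAs) separated the sets of arrays of this study, so their difference between the sets is given as a description and was not tested. Each gene was represented by a probe set annotated to its symbol alone, and where a gene had several, by the one with the highest mean. By this rule 4 of the 5 RNAs were measured, with 1 probe set each, among 19938 genes on the array. Neat1 had no probe set annotated to it alone and has no value here. A further probe set annotated to both Malat1 and Ramp2 was not used.

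The cells were mouse embryonic fibroblasts in 4 groups of 3 arrays. One pair of groups, called the S set, held Rb1 S/S mutant cells and the Rb1 +/+ wild type matched to them, and the other, the L set, held Rb1 L/L mutant cells and their own matched Rb1 +/+ wild type. All 12 samples had been grown in medium with 10% serum to passage 4 and then kept in 0.1% serum for 72 h to arrest growth, so there is no growing control. The embryo's age, the strain and what the S and L alleles change are not given in the labels, nor whether replicate samples stem from different embryos or cultures. P-values therefore measure only the spread between these samples.

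Malat1 is a long noncoding RNA of nuclear speckles, the bodies that store splicing factors, and it is among the most abundant nuclear RNAs of cultured cells. Its neighbour Neat1 is the scaffold of paraspeckles, which hold RNA-binding proteins. SnoRNAs are short RNAs of the nucleolus, most of them cut out of the introns of host transcripts. Those of the box C/D class, whose mouse symbols begin with Snord, guide methylation of ribosomal RNA, and those of the box H/ACA class, whose symbols begin with Snora, guide the change of uridine to pseudouridine. The retinoblastoma protein encoded by Rb1 represses E2F-driven genes and is needed for stable exit from the cell cycle.

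In the RefSeq annotation of GRCm38.p6, Malat1 lies on chromosome 19 from 5795690 to 5802672, and Neat1 on the same chromosome from 5824708 to 5845480, 22036 bp away. Snord104 spans 73 bp of chromosome 11, from 106500991 to 106501063, inside the long noncoding gene Gm36220. Snora31 spans 112 bp of chromosome 14, from 75847923 to 75848034, inside Tpt1, which encodes the translationally controlled tumour protein. DQ267102 spans 71 bp of chromosome 12, from 109656345 to 109656415, inside Rian, an imprinted noncoding RNA made from the maternal chromosome. The annotation places 11 snoRNA genes within Rian, of which DQ267102 and DQ267101 were measured.

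The promoters of Malat1 and of the host genes are shown because a snoRNA that lies inside a host gene is usually cut from the host's transcript. Each is a 300-base window around the annotated start, from RefSeq in GRCm38.p6, written on the gene's own strand. The windows are chr19:5802623-5802922 on the minus strand for Malat1, chr12:109603695-109603994 on the plus strand for Rian, chr14:75845006-75845305 on the plus strand for Tpt1 and chr11:106500665-106500964 on the plus strand for Gm36220. Capitals mark CCAAT boxes and the GC box, which reads GGGCGG or, on the other strand, CCGCCC.
Malat1: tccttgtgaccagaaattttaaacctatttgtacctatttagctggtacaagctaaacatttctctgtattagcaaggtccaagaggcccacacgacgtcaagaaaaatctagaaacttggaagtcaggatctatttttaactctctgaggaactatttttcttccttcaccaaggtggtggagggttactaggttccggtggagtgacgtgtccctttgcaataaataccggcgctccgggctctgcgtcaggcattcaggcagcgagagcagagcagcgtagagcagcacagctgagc
Rian: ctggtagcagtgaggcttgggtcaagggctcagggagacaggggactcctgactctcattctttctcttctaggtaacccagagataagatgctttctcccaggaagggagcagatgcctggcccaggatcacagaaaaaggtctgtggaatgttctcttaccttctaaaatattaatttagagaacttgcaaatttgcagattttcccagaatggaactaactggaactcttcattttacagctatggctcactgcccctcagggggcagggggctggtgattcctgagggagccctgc
Tpt1: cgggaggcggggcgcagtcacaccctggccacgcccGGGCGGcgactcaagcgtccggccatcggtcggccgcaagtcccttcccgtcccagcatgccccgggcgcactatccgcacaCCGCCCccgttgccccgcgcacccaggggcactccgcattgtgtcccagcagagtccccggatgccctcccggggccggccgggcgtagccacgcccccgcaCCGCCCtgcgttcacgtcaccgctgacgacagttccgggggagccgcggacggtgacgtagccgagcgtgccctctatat
Gm36220: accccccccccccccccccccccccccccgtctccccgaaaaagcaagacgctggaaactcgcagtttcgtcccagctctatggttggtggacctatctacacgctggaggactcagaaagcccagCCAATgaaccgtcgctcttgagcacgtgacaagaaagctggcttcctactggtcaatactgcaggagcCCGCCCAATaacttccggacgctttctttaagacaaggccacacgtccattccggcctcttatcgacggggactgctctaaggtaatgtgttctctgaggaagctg
The GC content of these windows was 47.0% for Malat1, 49.3% for Rian, 57.7% for Gm36220 and 74.0% for Tpt1. The motifs searched on both strands were the CCAAT box, the TATAAA box, the GC box GGGCGG and 4 E2F forms, namely TTTGGCGC, the form TTTCGCGC, the form TTTCCCGC and the form TTTGCCGC. Tpt1 held GGGCGG 3 times, 1 of them on the gene's strand. Gm36220 held CCAAT 2 times and GGGCGG 1 time on the opposite strand, and the last overlaps a CCAAT. The Malat1 and Rian windows held none of these letters, and 0 of the 4 windows held an E2F form. Among 32851 mouse promoter windows of the same length, CCAAT was in 37.4%, GGGCGG in 35.7%, TATAAA in 13.6% and any of the E2F forms in 2.26%. A match is a description of the letters and not a binding site.

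The median log2 signal per array was 6.85 to 7.01. Array 1 of the S-set wild type differed most from its group, with an interquartile range of 3.10 against at least 3.39 for the others and a residual SD of 0.325 against 0.0933 to 0.193. Results that rest on it are therefore given with and without it. All 16 fibroblast markers were measured, and their mean lay between 11.3 and 11.7 on every array. The mean of 10 macrophage and blood cell markers ranged from 8.15 to 8.45 in the S-set wild type, 9.07 to 9.20 in S/S, 7.69 to 9.84 in the L-set wild type and 7.26 to 9.02 in L/L. The mean of 9 endothelial markers stayed between 6.64 and 7.06. Of 8 epithelial markers, only the regulator Esrp1 was at background in all 4 groups, and of 8 skeletal muscle markers only the myosin Myh3. Of 8 neural markers, 0 were. The means of these lists ran from 6.34 to 6.96, 6.90 to 7.42 and 6.80 to 7.36 over the arrays, in the same order. Arrays 1 of the L-set wild type and of L/L had high signals for Y-linked genes, and the other 10 arrays gave such genes 3.82 to 5.51, which serves as a measure of background. The part of these differences in the values below was not tested.

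Malat1 was higher in the L set than in the S set. Its log2 signal was 7.10, 9.78 and 9.15 on the 3 wild-type arrays of the S set and 8.92, 9.78 and 8.80 on the S/S arrays. It was 12.04, 11.37 and 11.32 on the wild-type arrays of the L set and 11.98, 11.65 and 11.24 on the L/L arrays. All 6 arrays of the L set lay above all 6 of the S set, with a gap of 1.46 between the nearest arrays. The group means were 8.68 ± 1.40 (SD, n = 3) in the S-set wild type, 9.17 ± 0.53 in S/S, 11.58 ± 0.40 in the L-set wild type and 11.62 ± 0.37 in L/L. The wild types thus differed by 2.90 on the log2 scale, or 7.46-fold, and L/L differed from S/S by 2.46, or 5.49-fold. Without array 1 of the S-set wild type, which held the lowest Malat1 signal of the 12, the difference between the wild types was 2.11, or 4.32-fold. Ordered from the most positive difference down, Malat1 ranked 1 of 19938 genes in the wild types and also 1 in the mutants; the most negative difference between the wild types was larger in size, at -3.49. The array with the highest Malat1 signal in each L-set group was the one with high Y-linked signal.

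Snord104 is a box C/D snoRNA. Its log2 signal was 8.60, 9.93 and 9.64 in the S-set wild type and 9.55, 9.43 and 9.56 in S/S. It was 10.84, 11.02 and 11.34 in the L-set wild type and 11.22, 11.58 and 11.16 in L/L. The sets did not overlap, and the nearest arrays were 0.91 apart. The group means were 9.39 ± 0.70 (SD, n = 3), 9.51 ± 0.07, 11.07 ± 0.26 and 11.32 ± 0.23 in the same order. The wild types differed by 1.68, or 3.20-fold, and by 1.28, or 2.43-fold, without array 1 of the S-set wild type. L/L was 1.81 above S/S, or 3.50-fold.

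DQ267102 is one of the snoRNAs inside Rian. Its log2 signal was 8.72, 10.88 and 10.44 in the S-set wild type and 10.16, 10.76 and 10.53 in S/S. It was 11.65, 11.66 and 11.91 in the L-set wild type and 12.04, 12.15 and 12.05 in L/L. Again no array of one set reached the other, with a gap of 0.77. The group means were 10.01 ± 1.14 (SD, n = 3), 10.49 ± 0.31, 11.74 ± 0.15 and 12.08 ± 0.06. The wild types differed by 1.72, or 3.30-fold, of which 1.08, or 2.11-fold, was left without array 1 of the S-set wild type. L/L was 1.59 above S/S, or 3.02-fold. The 3 L/L arrays were also above the 3 wild-type arrays of their own set, as they were for 9.71% of all genes and for none of the other 3 RNAs.

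Snora31 is a box H/ACA snoRNA. Its log2 signal was 5.38, 6.30 and 6.73 in the S-set wild type and 7.33, 6.69 and 6.42 in S/S. It was 7.17, 8.09 and 7.96 in the L-set wild type and 7.62, 7.97 and 8.28 in L/L. The wild types did not overlap, but S/S array 1 lay above array 1 of the L-set wild type, by less than the SD of either group. The group means were 6.14 ± 0.69 (SD, n = 3), 6.81 ± 0.46, 7.74 ± 0.50 and 7.95 ± 0.33. The value of 5.38 is inside the range of Y-linked genes in arrays without a Y-linked signal. The wild types differed by 1.60, or 3.04-fold, and by 1.23, or 2.34-fold, without that array. L/L was 1.14 above S/S, or 2.21-fold, which ranked it 47 of 19938, against 6 in the wild types. In the same order, from the most positive down, Snord104 and DQ267102 ranked 3 and 2 in the wild types and 2 and 5 in the mutants.

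**Figure D1:**
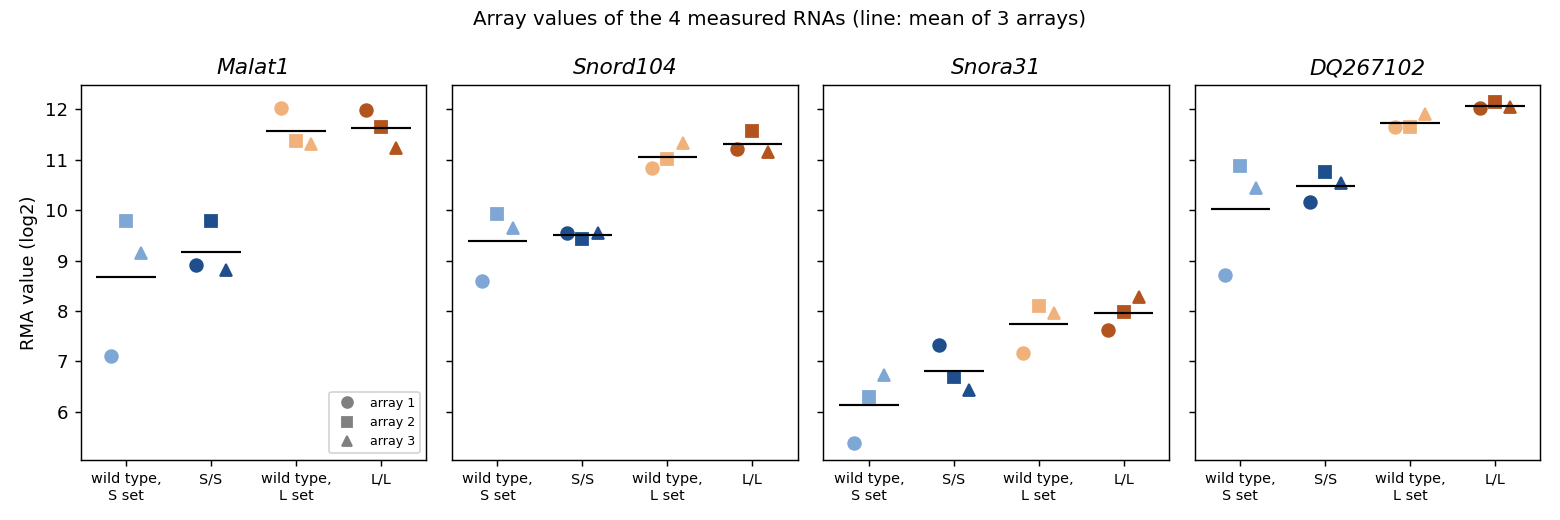
Log2 signal of the 4 measured RNAs on each of 12 arrays, by group, with the group means. Malat1, Snord104 and DQ267102 separate the 6 L-set arrays from the 6 S-set arrays, while Snora31 overlaps at 7.17 and 7.33, and array 1 of the S-set wild type is the lowest point of every RNA.

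Non-overlap between the wild types, with the L set higher, was found in 4 of the 4 measured RNAs, which the choice of the RNAs fixed, and in 11.5% of all genes tested. All 6 L-set arrays lay above all 6 S-set arrays for 3 of the 4, against 4.81% of all genes. Of all genes, 8.71% passed an adjusted p under 0.05 between the wild types, 3.54% higher and 5.17% lower in the L set, and nothing is read from this for the chosen RNAs. The wild types share the Rb1 +/+ genotype, and their strain is not given. The set cannot be told apart from strain, embryos, culture and array handling, nor in the mutant arrays from the allele. In RNA of whole cultures, fewer cells of a type and less RNA per cell cannot be told apart.

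None of the 4 RNAs passed the test in either mutant against its matched wild type. In S/S, Malat1 differed by 0.49 on the log2 scale (SE 0.51, 95% interval -0.62 to 1.60), with an adjusted p of 0.724 from limma over all genes. Snora31 differed by 0.68 (SE 0.34, interval -0.05 to 1.40, adjusted p = 0.516), DQ267102 by 0.47 (SE 0.39, interval -0.37 to 1.31, adjusted p = 0.651) and Snord104 by 0.12 (SE 0.26, interval -0.44 to 0.69, adjusted p = 0.872). These are 0 of 4, where 0.120% of all genes passed in S/S. Of all genes, 10.1% had an unadjusted p under 0.05 in S/S, and none of the 4 did. For 3 of the 4 the direction rests on array 1 of the S-set wild type: without it the S/S difference was -0.30 for Malat1, -0.27 for Snord104 and -0.18 for DQ267102, and 0.30 for Snora31. These contrasts share the wild-type arrays by which the RNAs were chosen.

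In L/L, Malat1 differed by 0.05 (SE 0.51, interval -1.06 to 1.16), Snora31 by 0.21 (SE 0.34, interval -0.51 to 0.94), Snord104 by 0.25 (SE 0.26, interval -0.31 to 0.82) and DQ267102 by 0.34 (SE 0.39, interval -0.50 to 1.18), with adjusted p of 1 in limma for each. Again 0 of 4 passed, where 0.0401% of all genes did. The model pools the spread of all 4 groups, so each RNA has the same SE in L/L as in S/S. The L/L intervals thus carry the spread of the S-set wild type, array 1 included. For DQ267102 the SD was 0.15 in the L-set wild type and 0.06 in L/L, against 1.14 in the S-set wild type. For Malat1 these SDs were 0.40 and 0.37 against 1.40. The S/S effect did not differ from the L/L effect past the threshold for any of the 4, and 0.0150% of all genes passed that test. For Malat1 the difference between the effects was 0.44 (interval -1.13 to 2.01, adjusted p = 0.886). It was 0.46 for Snora31 (adjusted p = 0.836), 0.13 for DQ267102 (adjusted p = 0.957) and -0.13 for Snord104 (adjusted p = 0.934).

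**Figure D2:**
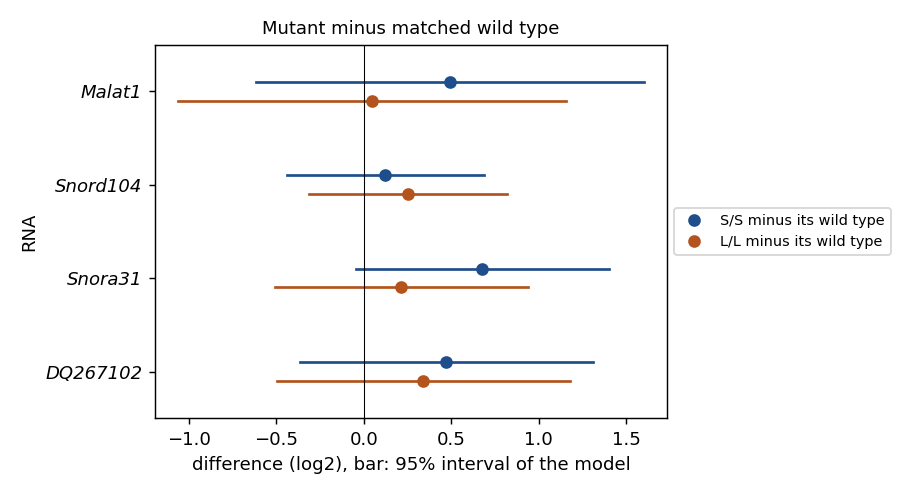
Log2 difference of each mutant from its matched wild type for the 4 measured RNAs, with 95% intervals from limma. All intervals include 0, and that of Malat1 runs from -0.62 to 1.60 in S/S and from -1.06 to 1.16 in L/L. The intervals use a spread pooled over all groups, array 1 of the S-set wild type included.

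The other snoRNAs of the array were also higher in the L set on balance. The class holds 57 measured genes, the 3 small RNAs above included, and was itself part of the reason for their choice, so its values are a description. It also takes in 3 scaRNA genes, whose symbols begin with Scarna, and which are counted among the snoRNA genes here. Its median difference between the wild types was 0.53 on the log2 scale, and 0.47 over the 54 others, against -0.07 for all genes. Of the 57, 52 were higher in the L set, against 7585 of all 19938 genes. In 33, or 57.9%, the 3 L-set wild-type arrays lay above the 3 of the S set, against 11.5% of all genes. The range ran from -0.21 for Snord53 to 1.72 for DQ267102. Without array 1 of the S-set wild type the median was 0.46. Between the mutant arrays it was 0.42, with 48 of 57 positive, against a median of 0.02 and 10734 of 19938 positive for all genes.

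The box classes were read from the symbols alone, which left the 3 scaRNA genes and 3 others, DQ267102 among them, outside both. The 31 box C/D genes so named had a median difference of 0.86, with 29 positive, and the 20 box H/ACA genes one of 0.44, with 18 positive. These medians were 0.53 and 0.32 without array 1 of the S-set wild type, and between the mutant arrays they were 0.45 and 0.37. Differences over 1 were seen in 14 of the 57 snoRNA genes, 10 of them with Snord symbols, against 140 of 19938 genes, or 0.702%. Snord49b, at 1.58, Snord52, at 1.44, and Snora69, at 1.44, came next after the 3 chosen ones. The medians were -0.07 in 18556 protein-coding genes, -0.08 in 675 long noncoding RNAs and -0.03 in 297 microRNA genes. Against their matched wild types, 0 of 57 snoRNA genes passed in S/S (median 0.21) and 0 in L/L (median 0.11) by limma, with 13 and 1 at an unadjusted p under 0.05, where 10.1% and 3.27% of all genes were. Snord16a was at 0.64 in S/S with an adjusted p of 0.060, and Snora23 at 0.74 with one of 0.108. The S/S median was 0.09 without array 1 of the S-set wild type.

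**Figure D3:**
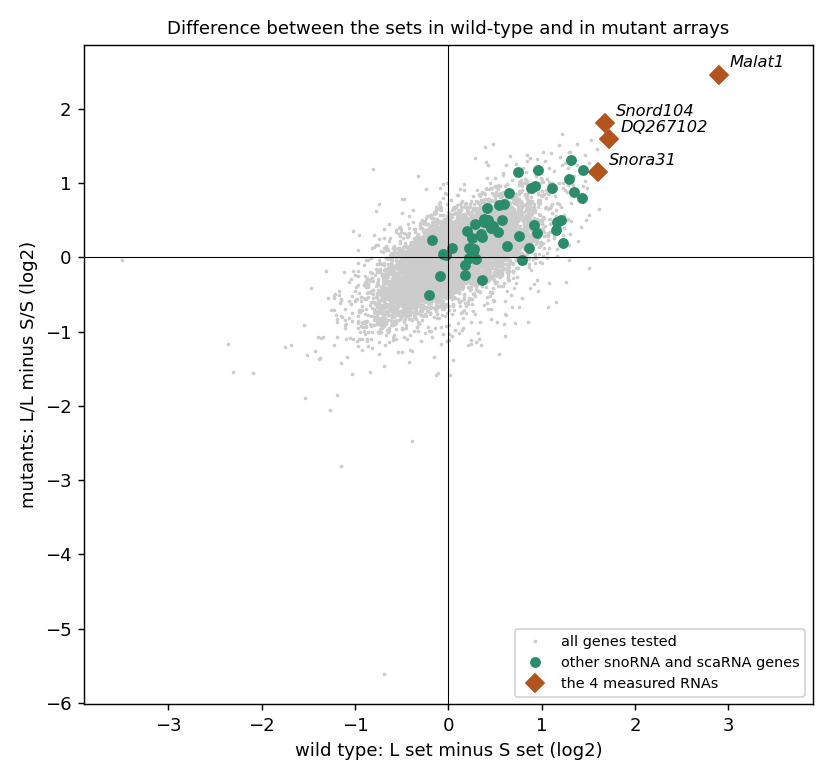
Log2 difference between the sets in the wild-type arrays (x axis) and in the mutant arrays (y axis) for all genes, with snoRNA genes and the 4 measured RNAs marked. The 4 RNAs lie at 1.60 to 2.90 on the x axis, and 48 of 57 snoRNA genes lie above 0 on the y axis.

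The measured genes that contain snoRNA genes differed less than the snoRNA genes on the median. By position, without regard to strand, 33 snoRNA genes lay within 28 measured genes, here called hosts. Whether each snoRNA is cut from that gene's transcript was not tested. The median difference between the wild types was 0.55 for these snoRNA genes and 0.17 for the hosts. The snoRNA's difference was the larger in 24 of 33, and in 23 of 33 between the mutant arrays. Among the hosts, 21 of 28 were positive, against 7585 of 19938 genes. Of the hosts, 8 passed as higher and 0 as lower, where 3.54% and 5.17% of all genes did. With the wild types fitted alone 0 hosts passed, where 71 of 19938 genes passed as higher. Without both arrays of high Y-linked signal 0 hosts passed, where 108 of all genes passed as higher. Leaving out arrays 1, 2 or 3 of the L-set wild type left 1, 1 and 2 hosts passing as higher, and leaving out array 3 of the S-set wild type, S/S array 3 or L/L array 1 or 2 left 5. In the fit without array 1 of the S-set wild type 6 passed as higher and 2 as lower, where 632 and 1446 of 19938 genes did. The medians there were 0.51 for the snoRNAs and 0.12 for the hosts, and the snoRNA's difference was the larger in 27 of 33. Tpt1, the host of Snora31, had group means of 13.07, 13.13, 13.11 and 13.12 in the S-set wild type, S/S, the L-set wild type and L/L, and a difference between the wild types of 0.04 (SE 0.08, adjusted p = 0.811 in limma). Snora31 differed by 1.60 in the same arrays. Tpt1 lay near the top of the range of all values, which ended at 14.67. Whether its probe set could still show a change there was not tested. A whole-transcript array measures a host's exons and an intronic snoRNA by separate probes, and levels of different probe sets are not compared here.

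Rian, the host of DQ267102, had group means of 6.29 ± 0.55 (SD, n = 3) in the S-set wild type, 6.67 ± 0.51 in S/S, 7.44 ± 0.44 in the L-set wild type and 7.21 ± 0.39 in L/L. It was 1.15 higher in the L-set wild type (SE 0.31, adjusted p = 0.0393 in limma). The call held in 5 of the 12 fits that left out 1 array; among the others, the adjusted p was 0.0917 without array 1 of the S-set wild type, 0.0548 without array 3 of that group, 0.166 and 0.12 without arrays 1 and 2 of the L-set wild type, 0.0524 without S/S array 3, and 0.0537 and 0.0527 without L/L arrays 1 and 2. DQ267101, the other measured snoRNA in Rian, had group means of 5.20, 5.23, 5.55 and 5.55, near the background range, and differed by 0.35 between the wild types. Around Malat1 the nearest measured genes were Ltbp3, which binds latent TGF-beta, at -0.40, and Frmd8 at 0.15. The genes beside Snord104 and Snora31 lay between -0.24 (Gtf2f2, a subunit of the general factor TFIIF) and -0.10 (Slc25a30, a mitochondrial carrier). The microRNA gene Mir379, beside DQ267102, had group means of 3.79 to 4.38, within or below the background range.

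**Figure D4:**
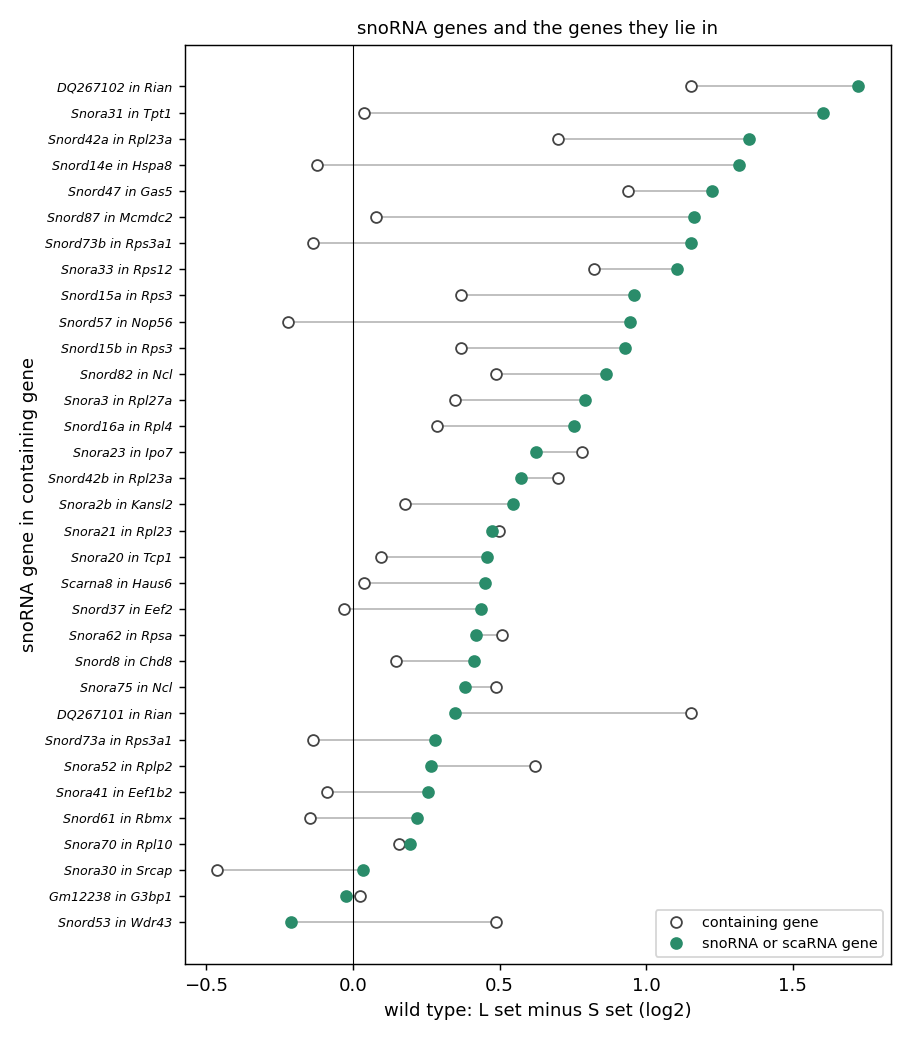
Log2 difference between the wild types for snoRNA genes and for the measured host genes that contain them. The snoRNA difference is the larger in 24 of 33 pairs, with a median of 0.55 against 0.17 for the hosts, and Tpt1 sits near 0 at 0.04.

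The small RNAs were nearer to each other than to Malat1 over the 12 arrays. Likeness was measured as the root-mean-square difference of centred log2 values among genes with at least 0.8 of the RNA's own range. The measure is not scaled for range, which was 4.94 for Malat1 and 2.89 to 3.43 for the small RNAs. A wider range alone can thus give a larger distance. For Malat1 only 7 genes had such a range, and the nearest were the Y-linked Uty at 1.62 and Eif2s3y at 1.78, then Ibsp, a bone sialoprotein, at 2.43. The chosen snoRNAs have a narrower range than that limit, and lay nearer to Malat1, at 0.610 for DQ267102, 0.691 for Snord104 and 0.935 for Snora31. For Snord104, out of 100 genes, the nearest were DQ267102 at 0.284, Snord49b at 0.307 and the tubulin chaperone Tbca at 0.330. For DQ267102, out of 46, they were Snord104 at 0.284, Tbca at 0.313 and Idi1, an enzyme of isoprenoid synthesis, at 0.317. For Snora31, out of 115, they were Vbp1, a prefoldin subunit, at 0.372, the splicing factor Luc7l3 at 0.395 and the kinase Nrk at 0.397. The arrays share their set, so this describes the pattern and says nothing of shared control.

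Among genes that serve these RNAs, some differed between the wild types and none passed in S/S or L/L. Here, 3.54% of all genes passed as higher and 5.17% as lower in the L set, which are 706 and 1030 of 19938. Leaving out array 1 of the L-set wild type cut the 1736 genes passing to 525, 170 higher and 355 lower. Without array 1 of the S-set wild type, 632 of all genes passed as higher and 1446 as lower. Of 32 measured speckle and splicing genes, 6 passed as higher and 1 as lower, with a median of 0.12. The splicing kinases Clk1 and Clk4, which phosphorylate SR proteins, were higher by 1.01 (SE 0.16, adjusted p = 0.00349 in limma) and 1.16 (SE 0.15, adjusted p = 0.00173), and Luc7l3 by 1.46 (SE 0.29, adjusted p = 0.0093). Srrm1, a splicing coactivator, was lower, at -0.63 (SE 0.12, adjusted p = 0.0068). These 4 calls held in all 12 fits that left out 1 array, but those of Luc7l3 and Srrm1 did not without both arrays of high Y-linked signal (adjusted p = 0.0639 and 0.0685) or with the wild types fitted alone (0.0726 and 0.0618). Without array 1 of the L-set wild type, 3 speckle genes passed as higher and 1 as lower. Without array 1 of the S-set wild type, 6 and 5 did, and the median was -0.0047.

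Of 31 measured paraspeckle proteins, 5 passed as higher and 3 as lower, with a median of 0.17, or 0.01 without array 1 of the S-set wild type. Hnrnpul1, an RNA-binding protein, was lower, at -0.54 (adjusted p = 0.00751 in limma), and held this call in all 12 fits with 1 array left out, but not without both arrays of high Y-linked signal (0.0791) or with the wild types fitted alone (0.0689). The splicing regulator Hnrnph1 was higher by 1.12 (adjusted p = 0.0128), but its adjusted p was 0.0572 without array 1 of the L-set wild type, and in that fit 0 paraspeckle genes passed as higher and 1 as lower.

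Among 8 short structural nuclear RNAs the median was 0.56, with all 8 positive. Rny3, a Y RNA that binds the Ro protein, was higher by 0.70 (SE 0.12, adjusted p = 0.00545 in limma), and Rmrp, the RNA of RNase MRP, by 0.66 (SE 0.12, adjusted p = 0.00585). Both calls held in all 12 fits with 1 array left out, and with the wild types fitted alone the adjusted p of Rmrp was 0.0654. Terc, the telomerase RNA, was at 0.59 with an adjusted p of 0.067. Of 18 other measured long noncoding RNAs, 3 passed as higher, Rian, Meg3 and Tug1, and 0 as lower, with a median of 0.20; without array 1 of the L-set wild type 0 passed, and without array 1 of the S-set wild type 1 did. Meg3, a maternally expressed RNA of the Rian locus, was higher by 0.76 (SE 0.16, adjusted p = 0.0108, and 0.0585 without array 1 of the L-set wild type).

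SnoRNAs work as particles with proteins, and most serve ribosome production. Of 22 snoRNP proteins and assembly factors, 0 passed as higher and 1 as lower, Tcof1 at -0.50 (adjusted p = 0.0148 in limma, and 0.0828 without array 1 of the L-set wild type), and the median was -0.04. Without array 1 of the S-set wild type, 5 passed as lower, where the genes passing as lower rose from 1030 to 1446 of all 19938. Of 34 measured genes of ribosome production, 2 passed as higher and 5 as lower, with a median of -0.03. Polr1b, the second largest subunit of RNA polymerase I, was lower, at -0.76 (SE 0.11, adjusted p = 0.00241), as was Bysl, at -0.63 (adjusted p = 0.00615), a factor of small-subunit assembly. Both calls held in all 12 fits with 1 array left out, and the adjusted p of Bysl was 0.061 without both arrays of high Y-linked signal and 0.0732 with the wild types fitted alone. Without array 1 of the L-set wild type, 0 and 2 passed, and without array 1 of the S-set wild type, 1 and 8. Of 35 genes for end processing and decay of nuclear RNA, 2 passed as higher and 2 as lower; without array 1 of the L-set wild type 0 passed, and without array 1 of the S-set wild type 2 and 7 did. Among 14 proliferation genes, which moved with the same contrast, 8 passed as lower and 0 as higher in the L-set wild type, Plk1 at -0.96 (adjusted p = 0.00751, and 0.0736 with the wild types fitted alone), and 3 without array 1 of that group. Between the mutant arrays their median was 0.02, with 2 passing as higher in L/L and 0 as lower. All genes also had a median of 0.02 there, with 735 of 19938 passing as higher and 1147 as lower. In L/L against its wild type the median of the proliferation genes was 0.38, with 12 of 14 positive and 1 passing. For all genes it was 0.015, with 11137 of 19938 positive and 8 passing. The part of growth state in the values above was not tested.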

How the data were processed

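RNA of 12 samples was measured on Affymetrix Mouse Gene 1.0 ST arrays. The deposited values are log2 RMA values made by the authors with Partek, per the submitters' processing notes and the design text. RMA corrects background, normalizes the arrays to each other and summarises the probes of a probe set. That the scale is log2 follows from the range of values, 2.43 to 14.67. The Partek version, the arrays normalized together and the genome build are not given in the sources used here.

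Of 35556 probe sets, 21789 had 1 symbol, 1621 several and 12146 none in the platform annotation, which can be old. A single model of 4 group means was fitted to 19938 genes with limma 3.58.1 in R 4.3.3 (8 residual and 5.19 prior degrees of freedom), without a filter on dim values. Tests were two-sided, with Benjamini-Hochberg adjustment over all genes and a threshold of 0.05. On arrays simulated with known changes, 86 of 100 genes changed by a log2 of 1 and 100 of 100 changed by 2 were recovered, with 10 false calls. The simulation used independent normal noise in randomly drawn genes and held no outlying array. Its rates therefore do not carry over to the 4 RNAs. Errors are SDs over 3 arrays or the model's SEs.

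The named genes were the measured RNAs, their hosts and neighbours, the genes of smallest p in each list, any that passed, and the 3 genes most like each RNA. Among the genes that passed, the text gives values for some and counts for the rest. The RNAs and the lists were chosen with earlier results of these data known. Alternatives were another normalization, a filter, array weights, a replicate block, other probe set choices, and arrays left out. The number of arrays limits the precision.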

Additional observations from a re-analysis of the deposited data

How the results depend on the processing

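For the 4 RNAs, 0 of 236 alternative values of the mutant contrasts passed (adjusted p 0.118 to 1 in limma), and 23 changed sign. With array weights, which gave array 1 of the S-set wild type a weight of 0.0774 against at least 0.348 for the others, the S/S difference was -0.40 for Malat1, -0.38 for Snord104 and -0.23 for DQ267102, the L/L difference was -0.000159 for Snora31, the difference between the effects was -0.60 for both Malat1 and DQ267102, and the wild types differed by 1.80 for Malat1 and 0.90 for DQ267102. Without both replicates 1 of the S set, chosen after seeing the data, the S/S difference was -0.18 for Malat1, -0.29 for Snord104 and -0.013 for DQ267102, and the difference between the effects -0.22 for Malat1, -0.17 for Snora31 and -0.35 for DQ267102. Tpt1 differed by -0.0073 between the wild types after quantile normalization. Leaving out 1 array at a time gave an S/S difference of -0.30 to 1.04 for Malat1, -0.27 to 0.39 for Snord104 and -0.18 to 0.91 for DQ267102. It gave an L/L difference of -0.13 to 0.28 for Malat1 and -0.071 to 0.39 for Snora31, and a difference between the effects of -0.35 to 0.99 for Malat1, -0.52 to 0.14 for Snord104 and -0.52 to 0.57 for DQ267102. The genes passing in S/S, 24 as reported, were 44 with each pair fitted alone and 415 with weights. They were 37 without both arrays of high Y-linked signal, 3 without both replicates 1 and 2 to 38 with 1 array left out. In L/L, 8 became 5 with each pair alone, 2 with all probe sets and 336 with weights. They became 2 without both arrays of high Y-linked signal, 42 without both replicates 1 and 2 to 26 with 1 left out. For the difference, 3 became 7 with quantile normalization, 10 with all probe sets, 293 with weights, 8 without both replicates 1 and 3 to 21. Between the wild types, 1736 became 228 with the pair alone and 6520 with weights. They became 304 without both arrays of high Y-linked signal, 2870 without both replicates 1 and 525 to 2078 with 1 left out. The causes were not tested. No second single-symbol probe set of these RNAs exists, so that alternative was not run.

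With a replicate block, 37 genes passed in S/S and 5 in L/L. Same-numbered arrays had residual correlations of 0.388, 0.475 and -0.122 in the S set and 0.601, 0.0576 and 0.360 in the L set. Arrays 1 of the L-set wild type and of L/L also shared the high Y-linked signal. These values do not settle whether the numbers mark pairs, which the labels do not say. The main fit did not use the numbers.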
